A study of Mus musculus with 3 samples.

Results

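In mouse non-small cell lung cancer profiled by droplet single-cell RNA sequencing, 937 cells carried transcripts of Rag1, Dntt or Arpp21 together with CD3 transcripts. Rag1 and Dntt belong to the machinery that rearranges T cell receptor genes, and Arpp21 is abundant in thymocytes. The 937 cells held no transcript of the division genes Mki67 and Top2a. They are called quiescent immature T-lineage cells here. A cell was a member if it held at least 2 UMIs (unique molecular identifiers, the tags by which captured transcripts are counted) summed over Rag1, Dntt and Arpp21, at least 1 UMI summed over Cd3e, Cd3d and Cd3g, 0 UMIs of Mki67 and Top2a, 0 UMIs of the B cell genes Cd79a and Ms4a1, and at most 2 UMIs of the myeloid gene Lyz2. The rule took 497 cells in the PBS library and 440 in the PD-L1 library, out of 9359 and 9697 cells with at least 500 UMIs, at least 200 genes and at most 20% mitochondrial UMIs. The AI-Exo library held 1 such cell among 10457, and it enters no sum below. Members were thus chosen by measured counts, and their levels of the rule's genes are given as a description only.

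The study examined immune cells of this tumour after drug treatment, and its title concerns exosomes that act on autophagy and immune tolerance. Its 3 libraries, labelled PBS, PD-L1 and AI-Exo, are 1 per group, all from tissue labelled non-small cell lung cancer. The labels do not spell out which agent stands behind the names PD-L1 and AI-Exo, nor how PBS was given. Neither the labels nor the series text states a strain, sex, age, tumour line, dose, time, cell sort or number of animals behind a library. A single library per group leaves every difference between libraries without replicates, so no test was run. Levels are a gene's UMIs summed over a class of cells in 1 library, per 1000000 UMIs of that sum (CPM). Unless libraries are named, pairs of values give PBS first and PD-L1 second. Brackets give 95% intervals (exact Poisson for CPM, Clopper-Pearson for shares) that cover counting error only. "Higher" and "lower" between classes or libraries describe the size of a ratio, set at 1.5-fold on the scale of CPM plus 10 with a mean of at least 10 CPM.

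T cells are made in the thymus from progenitors that arrive from the bone marrow. Progenitors lacking CD4 and CD8 respond to Notch ligands on thymic stroma, express the interleukin-2 receptor alpha chain, and rearrange the beta, gamma and delta receptor loci with the RAG1-RAG2 recombinase, while terminal transferase (Dntt) adds bases at the joints. A productive beta chain pairs with pre-T alpha, the cells divide, turn on CD8 and CD4, and then stop dividing. The resting CD4+ CD8+ cells express RAG again and rearrange the alpha locus, they depend on BCL-XL for survival, and they are known for their sensitivity to glucocorticoids. Positive selection is marked by CD69 and later by CCR7 and the IL-7 receptor, and the maturing cells leave the thymus along the S1PR1 route under the factor KLF2.

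Of all cells, members were 5.31% in PBS [4.86 to 5.78] and 4.54% in PD-L1 [4.13 to 4.97], while AI-Exo had 0.00956% [0.000242 to 0.0533]. A member held a median of 2863 UMIs in PBS and 2845.5 in PD-L1, and the members together held 2301974 and 1925916 UMIs. The summed count of Rag1, Dntt and Arpp21 reached a maximum of 33 UMIs in a PBS member and 40 in a PD-L1 member, with a median of 6 in both, and all 3 genes were found together in 199 and 190 members. The plot of cells by this count shows the number falling steadily in PBS and PD-L1 as the minimum was raised.

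**Figure D1:**
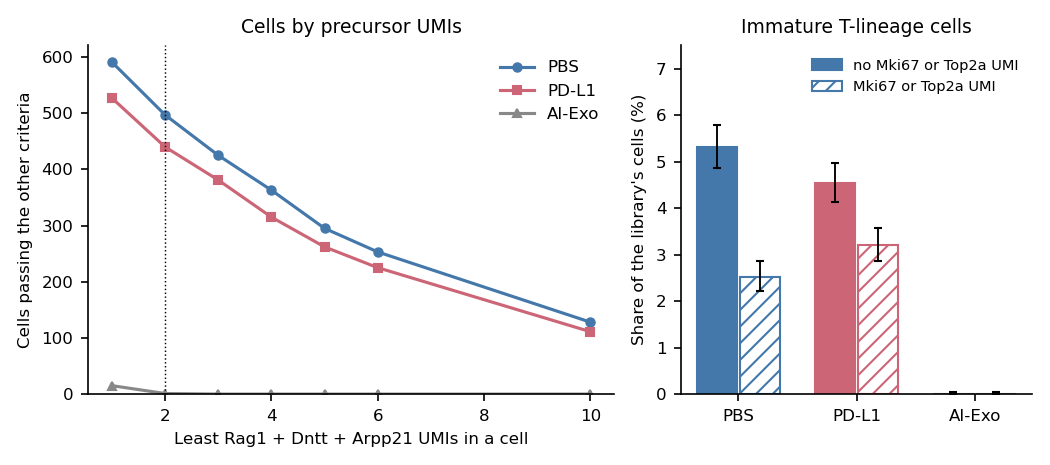
Left, the number of cells that met the rest of the rule (vertical axis, cells) at each minimum count of Rag1, Dntt and Arpp21 UMIs (horizontal axis) in each library. Right, members (solid) and the dividing cells with a UMI of Mki67 or Top2a (hatched) as a percent of the cells of each library, with 95% Clopper-Pearson intervals. PBS and PD-L1 held 497 and 440 members at the minimum of 2 UMIs, and AI-Exo held 1.

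At a minimum of 1 UMI the same rule would take 591 and 527 cells in PBS and PD-L1 and 15 cells in AI-Exo, which in AI-Exo is almost all cells with a single such UMI. At 6 UMIs it would take 253 and 225 cells in PBS and PD-L1 and 0 in AI-Exo. The members just inside the minimum, with exactly 2 UMIs, numbered 72 and 59, and the cells just outside, with exactly 1, numbered 94 and 87. Ccr9, a chemokine receptor of thymocytes that guides them to CCL25 and takes no part in the rule, stood at 344 and 373 CPM in the cells just inside and 245 and 242 CPM in those just outside. Cells that met the rule but held a UMI of Mki67 or Top2a, called dividing immature cells below, numbered 236 for PBS (2.52% of cells) and 311 for PD-L1 (3.21%). The AI-Exo library had 0, a count that allows a share of up to 0.0287%.

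The label was checked with Ccr9. After each cell was thinned to 1000 UMIs, which makes shares comparable across depths, 24.3% of members in PBS [20.6 to 28.3] and 30.5% in PD-L1 held a Ccr9 UMI. The share was 2.98% and 3.68% in T cells with no UMI of Rag1, Dntt or Arpp21, and 0.494% and 0.532% in B cells. Without thinning, 47.5% and 55.7% of members held one. Members thus stood above both classes in both libraries. The word quiescent rests only on the absence of Mki67 and Top2a UMIs in shallow profiles, and other division genes are given below.

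Depth and foreign RNA bear on these counts. The libraries held 68386729, 65997942 and 76512500 UMIs in PBS, PD-L1 and AI-Exo, with medians of 4380, 3948 and 4425 UMIs per cell. At least 2 UMIs of Rag1, Dntt and Arpp21 were found in 3 of the B cells of PBS (0.247%), 8 of PD-L1 (0.471%) and 3 of AI-Exo (0.109%). Free RNA, taken from the barcodes with 100 UMIs or fewer and scaled by the immunoglobulin gene Igkc, made up at most 1.33% and 1.64% of member UMIs. PBS and PD-L1 shared 23 cell barcodes, and 1 barcode was a member in both. Some members also carried transcripts of other immune cells: 37 in PBS (7.44%) and 57 in PD-L1 (13.0%) held more than 2 UMIs summed over Cd74, S100a8, S100a9, Tyrobp and Fcer1g. These mixed members had medians of 6050 and 6143 UMIs and held 12.2% and 22.9% of member UMIs, and a doublet score over 0.15 was reached by 10 and 23 of them. Many comparisons between the libraries and between coreceptor ranges are given with and without them. Values given once keep them unless stated, and members with CD8 alone were compared only with them. This split was chosen after the data were seen.

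The recombination genes outside the rule were measured alongside it. Rag1, the catalytic recombinase subunit, stood at 334 CPM in PBS and 384 CPM in PD-L1 in members (768 and 739 UMIs). Dntt, which adds bases at the joints, stood at 527 CPM in PBS and 576 CPM in PD-L1, and Arpp21, a cyclic-AMP-regulated phosphoprotein abundant in thymocytes, at 692 CPM in PBS and 691 CPM in PD-L1. These 3 levels follow from the rule. Rag2, the partner of RAG1, stood at 12.2 CPM in PBS and 21.3 CPM in PD-L1 (28 and 41 UMIs), a low level in these 3′ libraries.

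The end-joining genes of recombination were partly set apart from other T cells. Dclre1c, which encodes the nuclease Artemis that opens hairpins, stood at 112 CPM in PBS and 124 CPM in PD-L1 in members against 27.2 and 32.6 CPM in T cells with no precursor UMI and 32.6 and 23 CPM in dividing immature cells. Lig4, the ligase of the same pathway, stood at 23.5 CPM in PBS and 28.0 CPM in PD-L1 against 1.56 and 4.38 CPM in the T cells. Xrcc6, the Ku70 subunit that binds broken ends, stood at 302 CPM in PBS and 185 CPM in PD-L1 against 18.4 and 15.7 CPM. All 3 were higher in members than in the other T cells of the same library. In that comparison 16.9% of 7884 genes were higher in both libraries and 7.45% lower, with median log2 ratios of 0.21 and 0.24. The recombination list had medians of 0.49 and 0.57 there. With the rule's own genes left out, 10 of its genes were measured. Of these 4 were higher, the 3 above and Hmgb1, a DNA-bending cofactor (1106 CPM in PBS and 1379.6 CPM in PD-L1 against 494 and 462 CPM), and 1 was lower, the damage kinase Atm (26.5 CPM in PBS and 17.7 CPM in PD-L1 against 51.1 and 34.1 CPM).

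Members fell into ranges by their coreceptor transcripts. In PBS 205 members (41.2%) and in PD-L1 200 (45.5%) held UMIs of both Cd4 and a CD8 gene (Cd8a or Cd8b1). UMIs of a CD8 gene alone were found in 167 (33.6%) and 147 (33.4%), and of Cd4 alone in 17 (3.42%) and 21 (4.77%). Neither was found in 108 (21.7% [18.2 to 25.6]) and 72 (16.4% [13.0 to 20.2]). Missing UMIs are not missing RNA, yet cells with neither were deeper, with medians of 6519 and 9122 UMIs against 2698 and 2763.5 in cells with both, and they held 35.6% and 30.8% of member UMIs. After thinning to 1000 UMIs the shares became 15.1% and 16.6% with both and 42.7% and 35.6% with neither, from 490 and 433 members deep enough to thin.

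Genes outside the coreceptors split these ranges the same way in both libraries. Members with neither coreceptor carried genes of Notch-dependent progenitors, and members with both carried genes of the resting CD4+ CD8+ stage. Hes1, a direct Notch target, stood at 994 and 829 CPM in members with neither and 16.9 and 26.6 CPM in members with both. Il2ra, the interleukin-2 receptor alpha chain of early thymocytes, stood at 445 and 304 CPM against 9.10 and 9.80 CPM. A UMI of Il2ra or Hes1 was present in 76 of 108 and 47 of 72 members with neither, but in 14 of 205 and 21 of 200 with both. Notch1, the receptor itself, stood at 297 and 197 CPM against 26.0 and 33.6 CPM, and Erg, a transcription factor of early progenitors, at 35.4 and 33.8 CPM against 0 and 1.40 CPM.

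The converse held for Ccr9, Themis and Satb1. Ccr9 stood at 360.0 and 429 CPM in members with both coreceptors, 218 and 383 CPM in members with CD8 alone and 67.1 and 82.7 CPM in members with neither. Themis, needed for positive selection, stood at 1249 and 1612 CPM, 878 and 1466 CPM and 417 and 369.6 CPM. The chromatin organiser Satb1 stood at 2568 and 2407 CPM, 1847 and 2353 CPM and 714 and 779.8 CPM. In each of these 3 genes both libraries had their lowest level in the members with neither. Rmnd5a, a ubiquitin ligase subunit, showed the same, with 742 and 597 CPM against 138 and 116 CPM.

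The genes that chose the members are given by range as well. Rag1 stood at 485 and 597 CPM in members with both, 434 and 445 CPM with CD8 alone and 98.7 and 89.5 CPM with neither. Dntt stood at 438 and 571 CPM, 555 and 501 CPM and 596 and 699 CPM. Dividing immature cells had 122 and 104 CPM of Rag1 and 552 and 576 CPM of Dntt. Arpp21 stood at 855 and 844 CPM, 709.8 and 721 CPM and 525 and 454 CPM. Since the sum of these 3 genes chose the members, a cell low in 1 of them had to carry the others, and these levels are a description.

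**Figure D2:**
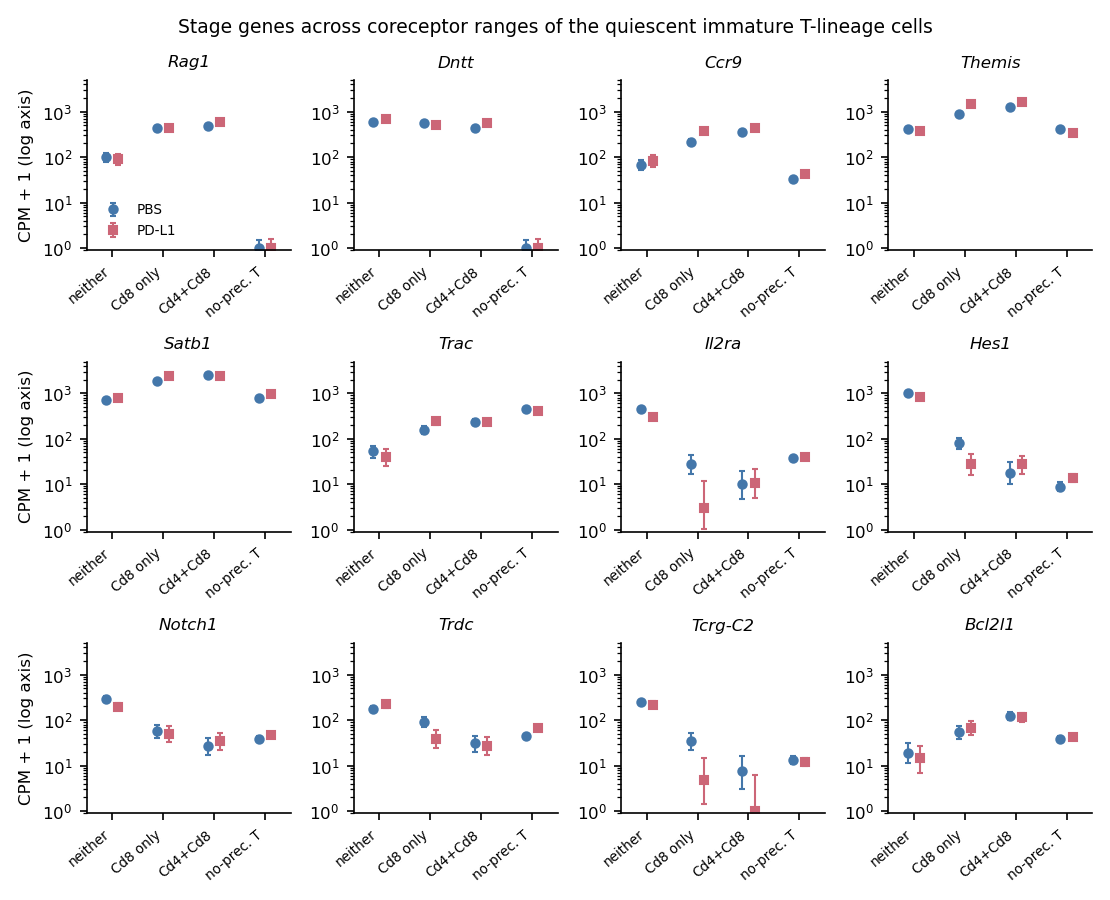
Each panel plots 1 gene, with CPM plus 1 on a log axis, in members with neither coreceptor, with CD8 alone and with both, and in T cells with no precursor UMI. PBS is blue and PD-L1 red, and bars are 95% Poisson intervals of the counts. Between members with both and members with neither, Rag1, Ccr9, Themis, Satb1, Trac and Bcl2l1 stand higher with both in both libraries. Il2ra, Hes1, Notch1, Trdc and Tcrg-C2 stand higher with neither in both libraries. Rag1 and Dntt are 0 in the last class by its definition.

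Over all genes, 7715 could be compared between members with both and with neither. Of these, 1202 (15.6%) were at least 1.5-fold higher with both in both libraries and 683 (8.85%) lower. Without the mixed members, 1113 of 7533 (14.8%) were higher and 681 (9.04%) lower, and the values that follow are from that comparison, with 189 and 168 members with both and 102 and 68 with neither. The list of early progenitor and Notch genes had 0 of 11 measured genes higher with both and 7 lower, with median log2 ratios of -1.37 in PBS and -1.94 in PD-L1, where all genes had 0.15 in each. The list of CD4+ CD8+ stage genes had 11 of 16 higher and 0 lower, with medians of 1.45 and 1.28. Receptor signalling genes had 12 of 19 higher and 0 lower, with medians of 0.77 and 0.88. The unconventional T cell list, which includes gamma and delta constant genes, had 0 of 6 higher and 6 lower.

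Single genes are named for the size of their difference in both libraries. Lower with both were Hes1 and Il2ra again, and Plac8, a small cysteine-rich protein, at 52.6 and 36.8 CPM with both against 1872 and 1844 CPM with neither. Myl10, a myosin light chain gene, stood at 1.59 and 6.14 CPM against 325 and 402 CPM. The protease-inhibitor-like gene Ctla2a stood at 7.97 and 18.4 CPM against 420.1 and 270.3 CPM, and the efflux pump Abcb1b at 11.2 and 10.2 CPM against 158 and 139 CPM. Atp8b4, a phospholipid flippase, and Crip1, a LIM-domain protein, completed the lower set at 191 and 215 CPM and 1513 and 1713 CPM in members with neither, against 15.9 and 6.14 and 204 and 162 CPM with both.

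Higher with both was Id3, an inhibitor of E proteins that is induced by receptor signals, at 445 and 546 CPM against 70.0 and 51.4 CPM. Camk4, a calcium-dependent kinase of thymocytes, stood at 873 and 974 CPM against 161 and 122 CPM. The growth factor receptor regulator Lrig1 stood at 169 and 225 CPM against 15.6 and 19.0 CPM, and the glucocorticoid-induced gene Glcci1 at 754 and 896 CPM against 102 and 62.8 CPM. The other 4 were Slc7a11, the cystine transporter, Ldlrad3, a low-density lipoprotein receptor family member, Ntrk3, a neurotrophin receptor, and Arntl, the clock factor BMAL1. Their levels with both were 223 and 151 CPM, 169 and 262 CPM, 185 and 127 CPM and 223 and 264 CPM, and with neither 22 and 13.3 CPM, 18.2 and 36.2 CPM, 23.3 and 13.3 CPM and 33.7 and 38.1 CPM. With the mixed members kept, the genes named as higher instead included Cxcl2, Acod1, Cd74, Lgals3, H2-Aa and Slpi, and 9 of 9 measured myeloid markers were higher with both. What the mixed cells contribute to those values was not tested, and the comparison without them is given above.

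Survival genes of the BCL2 family differed between the ranges. Bcl2l1, which encodes BCL-XL, stood at 121 and 125 CPM with both and 16.9 and 15.2 CPM with neither. Bcl2 was reversed, at 71.7 and 75.7 CPM with both and 233 and 198 CPM with neither. Cyclin genes also split: Ccnd3 stood at 1095 and 1072 CPM against 399 and 287 CPM, Ccnd2 at 36.7 and 6.14 CPM against 169 and 211 CPM, and their kinase partner Cdk6 at 86.1 and 85.9 CPM against 525 and 622 CPM. Of the division list, 1 of 18 genes was higher with both and 9 were lower, with medians of -0.57 and -1.0. The gene higher with both was Ccnd3, and the lower ones included the replication helicase genes Mcm2, Mcm3, Mcm5 and Mcm6, although Mki67 and Top2a were at 0 in all members.

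Constant genes of the receptor loci followed the same ranges. The beta constant genes Trbc1 and Trbc2, summed, stood at 3746 CPM in PBS and 3603 CPM in PD-L1, against 1721 and 1702 CPM in T cells with no precursor UMI. After thinning, 90.2% and 91.7% of members held a beta constant UMI. The share was 92.2% and 95.0% in members with both, 84.8% and 74.6% with neither, 73.5% and 72.2% in the other T cells, and 1.73% and 1.42% in B cells. Beta constant transcripts can come from unrearranged loci, so they do not show a finished chain.

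The alpha constant gene Trac was found in fewer members than in other T cells. Its level was 147 CPM in PBS and 174 CPM in PD-L1 in members against 444 and 403 CPM in T cells with no precursor UMI. After thinning, 16.9% and 20.1% of members held a Trac UMI against 35.1% and 32.9% of the other T cells and 0.247% and 0.414% of B cells. Within members the share was 19.1% and 21.6% with both, 20% and 21.8% with CD8 alone, and 6.67% and 7.46% with neither. Dividing immature cells had 7.20% and 5.79%, close to the members with neither.

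Gamma and delta constant genes ran the other way. The 4 gamma constant genes were found after thinning in 29.5% and 28.4% of members with neither, 0.490% and 0.503% with both, 8.90% and 8.68% of dividing immature cells and 2.39% and 3.24% of the other T cells. Trdc, the delta constant gene, was found in 11.4% and 11.9% with neither, 0.980% and 1.51% with both, 18.6% and 11.3% of dividing cells and 2.20% and 3.09% of other T cells. In CPM, Trdc stood at 178 and 224 CPM with neither and 29.9 and 26.6 CPM with both. Gamma and delta loci are open in early thymocytes of either fate, and these counts do not separate gamma-delta cells from cells that transcribe the loci before a fate choice.

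**Figure D3:**
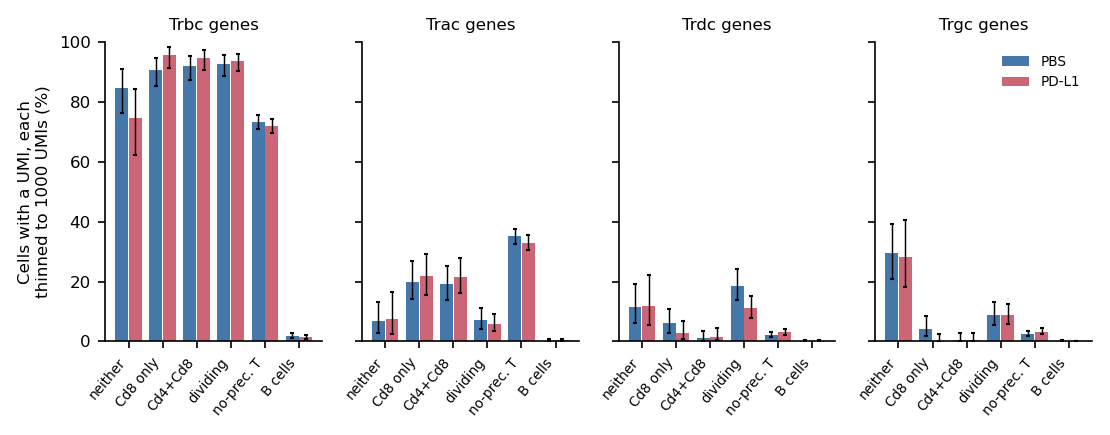
Percent of cells with at least 1 UMI of the beta, alpha, delta and gamma constant genes after thinning to 1000 UMIs, by coreceptor range of the members and in dividing immature cells, T cells with no precursor UMI and B cells. Error bars are 95% Clopper-Pearson intervals, blue is PBS and red is PD-L1. Members with neither coreceptor have the largest share of cells with a gamma constant UMI (29.5% and 28.4%). Among the members plotted they have the smallest share of cells with an alpha constant UMI.

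Variable segments were sparse in these 3′ libraries. Beta variable segments reached 46.5 and 45.2 CPM in members, and 23 different segments had at least 1 UMI in 1 library or the other. The most frequent, Trbv12-2, had 18 and 15 UMIs, which is 16.8% and 17.2% of the beta variable UMIs. Alpha variable segments had 66 and 68 UMIs in 52 and 47 members. No single segment made up most of either library's beta variable UMIs.

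Members were next set beside the dividing immature cells of the same library. Dividing cells were deeper, with medians of 13594.5 and 17301 UMIs against 2863 and 2845.5. Of 7931 genes measured, 1353 (17.1%) were higher in members in both libraries and 984 (12.4%) lower. The rule used Mki67 and Top2a, so other genes of division follow from it in part and are a description. With those 2 left out, 2 of 22 measured genes of the division list were higher (Ccnd2 and Ccnd3) and 19 lower, with medians of -1.98 and -1.88 where all genes had 0.12 and 0.18.

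Division genes outside the rule were low but not at 0 in members. Pclaf, a clamp-associated factor of DNA synthesis, stood at 13.9 CPM in PBS and 27.5 CPM in PD-L1 in members and 631 and 868 CPM in dividing cells. Ube2c, of the anaphase-promoting complex, stood at 14.3 CPM in PBS and 11.4 CPM in PD-L1 against 469 and 459.7 CPM, and Birc5, the mitotic protein survivin, at 8.69 CPM in PBS and 17.1 CPM in PD-L1 against 450.2 and 437 CPM. Stmn1, a microtubule regulator also found in resting precursors, stood at 381 CPM in PBS and 421 CPM in PD-L1 against 2001 and 1977 CPM. T cells with no precursor UMI had 61.7 and 75.8 CPM of Stmn1 and 3.40 and 7.55 CPM of Pclaf. Those T cells also held 0 UMIs of Mki67 and Top2a by definition, so their low levels follow from it in part.

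Genes of rest and of the CD4+ CD8+ stage were higher in members than in dividing cells. On the quiescence list 9 of 14 measured genes were higher and 0 lower, with medians of 0.80 and 1.17. The antiproliferative gene Btg2 stood at 2102 CPM in PBS and 1922 CPM in PD-L1 against 1008 and 640.3 CPM, and Btg1 at 1358 CPM in PBS and 1535 CPM in PD-L1 against 456 and 320.3 CPM. Foxo3, a transcription factor of resting lymphocytes, stood at 304 CPM in PBS and 277 CPM in PD-L1 against 124 and 104 CPM, and the cell cycle inhibitor Cdkn1b (p27) at 251 CPM in PBS and 249.8 CPM in PD-L1 against 129 and 107 CPM. The CD4+ CD8+ stage list had 12 of 19 higher and 1 lower, receptor signalling 11 of 19 and 0, and immediate early genes 15 of 18 and 0. The glycolysis list had 2 of 15 higher, the glucose transporter Slc2a1 and Pfkp, and 6 lower, Tpi1, Gapdh, Pgk1, Pgam1, Pkm and Ldha.

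The 8 genes named by rule as higher than in dividing cells included Ccr9 (215 CPM in PBS and 305 CPM in PD-L1 against 50.3 and 50.8 CPM), Cd4 and the stress-induced factor Atf3. Chrna9, a nicotinic receptor subunit, stood at 126 CPM in PBS and 121 CPM in PD-L1 against 30.2 and 24.6 CPM. The histone demethylase Kdm5b stood at 160.3 CPM in PBS and 169 CPM in PD-L1 against 40.8 and 37.3 CPM, and the TEC-family kinase Txk at 219 CPM in PBS and 258 CPM in PD-L1 against 59.3 and 38.1 CPM. Fhit, a nucleotide hydrolase, and Arap2, an ARF GTPase regulator, stood at 225 and 211 CPM and 288 and 247 CPM in members against 60.4 and 48.2 CPM and 82.1 and 48.9 CPM. Dntt (552 and 576 CPM in dividing cells, with the member levels given above) was less than 1.5-fold apart in at least 1 library. The same held for Myb, a progenitor transcription factor (393 and 372 CPM in members, 311 and 267 CPM in dividing cells).

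Beside T cells with no precursor UMI, members were low in genes of mature T cells and high in genes of thymocytes. Those T cells held at least 2 CD3 UMIs and 0 UMIs of Rag1, Dntt, Arpp21, Mki67 and Top2a. The limits on Cd79a, Ms4a1 and Lyz2 were those of the members, and the cells numbered 1552 and 1362. Of 7884 genes, 1331 (16.9%) were higher in members in both libraries and 587 (7.45%) lower. The NK and effector list had 0 of 11 higher and 11 lower, with medians of -3.05 and -2.88 where all genes had 0.21 and 0.24. The egress and naive T cell list had 2 of 18 higher (Cd27, a costimulatory receptor, and Tmem108, a transmembrane protein) and 12 lower, with medians of -1.99 and -1.69. The CD4+ CD8+ stage list had 15 of 19 higher and 0 lower, with medians of 1.33 and 1.60.

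Egress and maturation genes were among the lower ones. Il7r, the IL-7 receptor, stood at 43.0 CPM in PBS and 24.9 CPM in PD-L1 in members and 486 and 328 CPM in the other T cells. S1pr1, the receptor that draws T cells out of tissue, stood at 13.9 CPM in PBS and 20.8 CPM in PD-L1 against 145 and 148 CPM, and Klf2, its activator, at 722 CPM in PBS and 911 CPM in PD-L1 against 2311 and 1968 CPM. Ccr7, the lymph node homing receptor, stood at 18.7 CPM in PBS and 32.2 CPM in PD-L1 against 133 and 209 CPM. In all 4 genes both libraries had the lower level in members. Ms4a4b, a membrane gene of mature T cells, showed 43.9 CPM in PBS and 45.2 CPM in PD-L1 against 882 and 735 CPM, and the GTPase Gimap4 33.4 CPM in PBS and 21.3 CPM in PD-L1 against 487 and 379 CPM.

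Many genes of antigen presentation and some of selection were also lower in members. On the selection list 8 of 18 genes were lower and 1 was higher, Id3 (263 CPM in PBS and 316 CPM in PD-L1 against 100.1 and 120.1 CPM). Cd69, an early marker of selection and activation, stood at 372 CPM in PBS and 286 CPM in PD-L1 in members against 682 and 637 CPM. Foxp3, the factor of regulatory T cells, had 0 UMIs in members of both libraries. H2-K1, a classical MHC class I heavy chain, stood at 404 CPM in PBS and 476 CPM in PD-L1 against 1849 and 1757 CPM, and B2m, its partner, at 1001 CPM in PBS and 989 CPM in PD-L1 against 2364 and 2425 CPM. On the MHC class I list 0 of 16 were higher and 12 lower, and on the checkpoint list 0 of 9 and 8. Interferon-induced genes had 0 of 27 higher and 16 lower, with medians of -1.06 and -0.82, although in the same members 10 of 21 were higher than in dividing cells and 0 lower.

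Genes higher in members were led by thymocyte and precursor genes. Ly6d, a surface protein of lymphoid precursors and B cells, stood at 1094 CPM in PBS and 828 CPM in PD-L1 in members, 6.10 and 7.55 CPM in the other T cells and 1256 and 1332 CPM in B cells. Endou, an endoribonuclease, stood at 206 CPM in PBS and 259 CPM in PD-L1 against 3.97 and 3.32 CPM in T cells, and Cd24a, heat-stable antigen of immature lymphocytes, at 431 CPM in PBS and 415 CPM in PD-L1 against 25.4 and 22.1 CPM. The transcription factor Sox4 stood at 751 CPM in PBS and 776 CPM in PD-L1 against 54.6 and 78.4 CPM, and the E protein Tcf12 (HEB) at 1031 CPM in PBS and 1024 CPM in PD-L1 against 265 and 284 CPM. Hes1, Aqp11, a water channel, Myl10 and Wdr78, a dynein-associated gene, completed the set at 382 and 276 CPM, 219 and 185 CPM, 119 and 128 CPM and 169.9 and 170.3 CPM in members, against 7.80 and 12.7 CPM, 4.68 and 5.74 CPM, 1.13 and 0.906 CPM and 7.80 and 8.31 CPM.

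The lower set named by rule included cytotoxic genes that lymphocytes of other classes carry. Ccl5, a chemokine of effector T and NK cells, stood at 333 CPM in PBS and 457 CPM in PD-L1 in members against 6553 and 4510.1 CPM. Nkg7, of cytotoxic granules, stood at 60.8 CPM in PBS and 64.9 CPM in PD-L1 against 623 and 594 CPM. Ly6c2, a surface marker of memory T cells and monocytes, stood at 18.7 CPM in PBS and 16.1 CPM in PD-L1 against 422 and 325 CPM. Gimap3, a GTPase of lymphocyte survival, and Inpp4b, a lipid phosphatase, completed it at 15.6 and 11.9 CPM and 58.2 and 64.9 CPM against 338 and 232 CPM and 599 and 589.7 CPM.

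**Figure D4:**
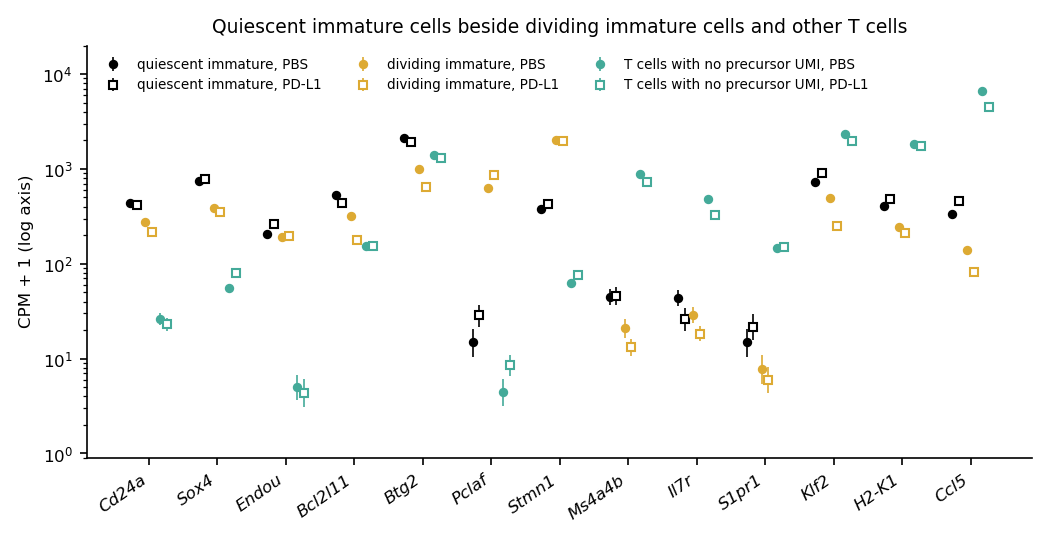
CPM plus 1 (log axis) of 13 genes in members, dividing immature cells and T cells with no precursor UMI. Filled points are PBS and open points PD-L1. Cd24a, Sox4, Endou and Bcl2l11 stand higher in members than in the other T cells, and Ms4a4b, Il7r, S1pr1, Klf2, H2-K1 and Ccl5 lower, in both libraries. Pclaf and Stmn1 stand highest in the dividing cells.

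Death and glucocorticoid genes are described next because resting CD4+ CD8+ thymocytes are known to die readily. Bcl2l11, which encodes the killer protein BIM, stood at 527 CPM in PBS and 439.8 CPM in PD-L1 in members, 152 and 151 CPM in T cells with no precursor UMI and 321 and 176 CPM in dividing cells. Bmf, another BH3-only gene, stood at 32.6 CPM in PBS and 27.0 CPM in PD-L1 against 1.84 and 3.47 CPM in the other T cells. Bcl2, which opposes both, stood at 137 CPM in PBS and 134 CPM in PD-L1 against 419.7 and 319 CPM. On the apoptosis list 4 of 18 genes were higher than in the other T cells (Bcl2l1, Bcl2l11, Bbc3 and Bmf) and 3 lower (Bcl2, Bcl2a1b and Casp8). Nr3c1, the glucocorticoid receptor, stood at 492 CPM in PBS and 313 CPM in PD-L1 against 294 and 314 CPM, and Fkbp5, a chaperone induced by glucocorticoids, at 510.0 CPM in PBS and 247 CPM in PD-L1 against 83.3 and 64.8 CPM.

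The PD-L1 library was then compared with PBS within the members. Over all members, genes of the developmental stages were mostly at like levels, a smaller group led by Hist1h2bc and Fkbp5 was lower in PD-L1, and interferon-induced and myeloid genes were higher in PD-L1, with smaller ratios without the mixed members. Of 8261 genes, 289 (3.5%) were at least 1.5-fold higher in PD-L1 and 110 (1.33%) lower. Without the mixed members the counts were 232 of 8128 (2.85%) and 118 (1.45%). At a mean of 100 CPM or more, where counting error is smaller, they were 38 and 16 of 1956 genes, and 21 and 15 of 1930 without the mixed members. The balance of higher over lower moved with the scaling, from 289 and 110 to 307 and 221 when mitochondrial, ribosomal and receptor genes were left out of the totals, and to 243 and 147 when ratios were centred on the median gene.

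The same contrast in other classes gave 67 of 7893 genes higher (0.849%) and 159 lower (2.01%) in dividing immature cells. In T cells with no precursor UMI 80 of 7783 were higher (1.03%) and 42 lower (0.540%), and in B cells 83 of 7652 (1.08%) and 99 (1.29%). The member sums hold fewer UMIs than these classes (2301974 and 1925916 against 7050575 and 6618961 in the T cells), so counting error is larger in members and the shares are not directly comparable.

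Summed over all members, lists of developmental genes showed few differences between the libraries, while the coreceptor ranges taken singly showed more. On the CD4+ CD8+ stage list 0 of 20 genes were higher and 0 lower, with a median log2 ratio of 0.08 where all genes had 0.05. The receptor signalling list had 0 of 22 and 0 (0.08), the quiescence list 0 of 14 and 0 (0.04), autophagy 0 of 18 and 0 (0.00) and glycolysis 0 of 15 and 0. Maturation genes were an exception in part: Il7r had a log2 ratio of -0.60 (-0.88 without the mixed members), and Itm2a, a membrane protein induced by receptor signals, -0.84 (62.6 CPM in PBS and 30.6 CPM in PD-L1). Ccr7 went the other way without the mixed members, at 11.4 and 22.9 CPM (0.62), and was not past 1.5-fold with them (18.7 CPM in PBS and 32.2 CPM in PD-L1, 0.56). The recombination list had 0 of 13 higher and 1 lower, and early progenitor and Notch genes 2 of 12 and 1. The genes past 1.5-fold were Xrcc6 (302 CPM in PBS and 185 CPM in PD-L1, log2 ratio -0.68), Il2ra (169 CPM in PBS and 102 CPM in PD-L1, -0.68), Cd44, an adhesion receptor (98.6 CPM in PBS and 229.5 CPM in PD-L1, 1.14, and 26.7 and 71.3 CPM without the mixed members), and Spi1, the myeloid factor PU.1 (30.4 CPM in PBS and 68.5 CPM in PD-L1, and 6.43 and 12.8 CPM without the mixed members). Members with neither coreceptor, in which Il2ra stood at 445 and 304 CPM, were 21.7% of members in PBS and 16.4% in PD-L1, and the part of this share in the difference was not tested.

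Within single ranges the sums are smaller and more genes pass 1.5-fold. In members with both coreceptors 7.53% of 8295 genes were higher in PD-L1 and 4.88% lower. With CD8 alone the shares were 10.4% and 7.54% of 8197 genes, and with neither 7.74% and 6.38% of 7897.

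In members with both coreceptors, genes of selection and egress were among the lower ones in PD-L1. The egress list had 0 of 15 higher and 5 lower, with a median of -0.46 (-0.40 without the mixed members). The selection list had 1 of 18 higher, the immediate early gene Egr1, and 5 lower, with a median of -0.07. Without the mixed members it had 1 of 17 higher and 3 lower (-0.20), where all genes had 8.64% and 7.09%. With the mixed members kept, Cd69 stood at 500.4 and 277 CPM, Itm2a at 65.0 and 26.6 CPM and Ms4a4b at 81.9 and 37.8 CPM. Il7r stood at 45.5 and 1.40 CPM and S1pr1 at 19.5 and 4.20 CPM, both low in counts.

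Members with CD8 alone had lower levels of early genes in PD-L1. The early progenitor and Notch list had 2 of 9 higher (Cd44 and Spi1) and 4 lower, and the unconventional T cell list 0 of 7 and 5. These values keep the mixed members, and the myeloid marker list had 6 of 11 higher and 1 lower in the same cells (median 0.84). Hes1 stood at 78.0 and 26.6 CPM, Il2ra at 27.0 and 1.90 CPM, Trdc at 91.5 and 38.1 CPM and the gamma constant gene Tcrg-C1 at 45.0 and 1.90 CPM. The immediate early and stress list had 7 of 18 higher and 0 lower there, and 6 and 0 in members with both (4 and 0 without the mixed members).

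Members with neither coreceptor had the reverse for the immediate early list, with 0 of 18 higher and 8 lower in PD-L1 (median -0.56, and -0.49 without the mixed members). Fos, a subunit of the factor AP-1, stood at 1091 and 496 CPM, and its partner Jun at 1777 and 1095 CPM. The quiescence list had 0 of 14 higher and 4 lower (-0.27, and -0.23 without the mixed members), among them Btg2 at 1746 and 901 CPM and Klf2 at 395 and 213 CPM. The division list had 8 of 20 higher and 1 lower (0.49, and 0.24 without the mixed members), among them Mcm3 at 41.5 and 92.8 CPM and Mcm6 at 68.3 and 127 CPM. Dividing immature cells also had 0 of 14 quiescence genes higher and 3 lower. The glucocorticoid list had 0 of 12 higher and 5 lower with neither (-0.30). Without the mixed members it had 1 of 12 higher and 3 lower there (-0.26). In dividing cells it had 0 of 11 and 4 (-0.39). With both it had 3 of 12 higher and 2 lower, and 2 and 2 without the mixed members. Tsc22d3, the glucocorticoid-induced leucine zipper GILZ, stood at 261 and 116 CPM with neither and 251 and 108 CPM in dividing cells. Whether the ranges differ in these contrasts was not tested.

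Among genes at lower levels in PD-L1 were 3 histone genes. Hist1h2bc, an H2B gene, stood at 1716 CPM in PBS [1663 to 1771] and 771 CPM in PD-L1 [732 to 811], a log2 ratio of -1.14. Hist1h1c, a linker histone gene, stood at 1143 CPM in PBS and 592 CPM in PD-L1 (-0.94), and Hist3h2a, an H2A gene, at 668 CPM in PBS and 405 CPM in PD-L1 (-0.71). Cirbp and Rbm3, RNA-binding proteins induced by mild cold, stood at 172 CPM in PBS and 87.2 CPM in PD-L1 (-0.91) and 1346 CPM in PBS and 784 CPM in PD-L1 (-0.77). Both were also lower in PD-L1 in T cells with no precursor UMI, at 155 and 90.0 CPM and 965 and 598 CPM, and in B cells, at 182 and 109 CPM and 923 and 571 CPM.

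Fkbp5 stood at 510.0 CPM in PBS [481 to 540.0] and 247 CPM in PD-L1 [225 to 269.8], a log2 ratio of -1.02, and at 538 and 273 CPM (-0.96) without the mixed members. It was lower in PD-L1 in dividing cells too, at 555 and 352 CPM, and in B cells, at 52.9 and 20.6 CPM, while the other T cells had 83.3 and 64.8 CPM. Nr3c1 stood at 492 CPM in PBS and 313 CPM in PD-L1 (-0.64, and -0.58 without the mixed members), and Tsc22d3 at 464 CPM in PBS and 334 CPM in PD-L1 (-0.46). Zfp36, an RNA-decay factor on the same list, was higher, at 585 CPM in PBS and 965 CPM in PD-L1 (0.71), but not past 1.5-fold without the mixed members (0.43), where the kinase gene Sgk1 was instead (41.6 and 71.3 CPM, 0.66). Over all members the glucocorticoid list had 1 of 12 genes higher and 2 lower, with a median of 0.10.

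The other 4 genes named as lower were Wwox, an oxidoreductase gene, at 408 CPM in PBS and 211 CPM in PD-L1, Pde10a, a phosphodiesterase, at 106 CPM in PBS and 50.9 CPM in PD-L1, Ctla2a at 189 CPM in PBS and 96.1 CPM in PD-L1 and Adipor2, an adiponectin receptor, at 133 CPM in PBS and 78.9 CPM in PD-L1. Ctla2a belongs almost wholly to members with neither coreceptor, at 444 and 262 CPM there and 9.10 and 16.8 CPM in members with both, and its ratio took the other sign in members with both. Pde10a had the opposite direction in T cells with no precursor UMI, at 3.55 and 11.3 CPM. Of the 10 genes named as lower, 10 stayed past 1.5-fold without the mixed members, 9 did so in members with neither, 8 in dividing cells, 4 in the other T cells (Hist1h2bc, Cirbp, Ctla2a and Rbm3) and 3 in B cells (Fkbp5, Cirbp and Rbm3).

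Interferon-induced genes were higher in PD-L1 members. On this list 16 of 27 measured genes were higher and 0 lower, with a median log2 ratio of 0.74, and without the mixed members 10 of 25 and 0, with a median of 0.40. With the mixed members kept, the median by range was 0.87 in members with both coreceptors, 0.58 with CD8 alone and 0.29 with neither. Without the mixed members the order changed, to 0.39 with both (10 of 27 higher, 3 lower) and 0.46 with neither (8 of 24 higher, 1 lower). The range with CD8 alone was not computed without them. The same list had 0.22 in dividing cells, 0.35 in the other T cells and 0.83 in B cells, so it was not a pattern of members alone. Thinning the members gave 0.43, and leaving out members with a doublet score over 0.15 gave 0.46.

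Single interferon genes differed in how much of the ratio lay in mixed members. Rsad2, the antiviral enzyme viperin, stood at 50.4 CPM in PBS and 157 CPM in PD-L1 and, without the mixed members, at 25.7 and 72.7 CPM (1.21). Ifi27l2a, a mitochondrial interferon-induced gene, stood at 53.4 CPM in PBS and 183 CPM in PD-L1 and at 32.7 and 78.1 CPM without them, beside 508 and 1143 CPM in the other T cells and 397 and 1086 CPM in B cells. Oasl1, an antiviral translation regulator, stood at 14.3 CPM in PBS and 98.1 CPM in PD-L1 and 7.92 and 37.7 CPM. In these 3 genes PD-L1 was higher with and without the mixed members. Isg15, the ubiquitin-like modifier, stood at 214 CPM in PBS and 237 CPM in PD-L1 with them and 197 and 137 CPM without, a log2 ratio of -0.49. Ifit1, which binds foreign RNA, stood at 50 CPM in PBS and 75.8 CPM in PD-L1 and 23.3 and 21.5 CPM. Oasl2, Irf7 and Rtp4 stood at 15.2 and 54.0 CPM, 11.3 and 37.9 CPM and 14.3 and 48.3 CPM in all members. Rnf213, a large interferon-induced ubiquitin ligase, stood at 36.1 CPM in PBS and 107 CPM in PD-L1 and 29.7 and 73.4 CPM without the mixed members.

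Genes of neutrophils and monocytes were higher in PD-L1 members, a direction that leaving out members of high doublet score reversed for S100a8 and S100a9. S100a9, an abundant neutrophil protein, stood at 299 CPM in PBS [277 to 322] and 893 CPM in PD-L1 [851 to 936] in all members and at 19.8 and 43.1 CPM without the mixed members, and a UMI of it was found in 57 and 96 members. Its partner S100a8 stood at 168 CPM in PBS and 506 CPM in PD-L1 and 11.4 and 28.3 CPM, and the cytokine Il1b at 205 CPM in PBS and 578 CPM in PD-L1 and 27.7 and 45.1 CPM. Slfn4, a myeloid interferon-induced gene, stood at 6.95 CPM in PBS and 101 CPM in PD-L1 and 2.97 and 23.6 CPM, and Acod1, the itaconate-producing enzyme, at 60.8 CPM in PBS and 244 CPM in PD-L1 and 4.45 and 10.8 CPM. The mixed members were defined with S100a8, S100a9 and other myeloid genes, so lower levels of these and of genes carried with them after their removal follow from that definition. Leaving out members with a doublet score over 0.15 turned the log2 ratios of S100a9 and S100a8 from 1.55 and 1.54 to -1.11 and -0.86. B cells had 306 and 741 CPM of S100a9 and the other T cells 408 and 855 CPM, and members with neither coreceptor had 47.5 and 37.1 CPM. G0s2, a lipase inhibitor of neutrophils, stood at 87.8 CPM in PBS and 236 CPM in PD-L1 and 38.1 and 39.0 CPM, and Plek, a leukocyte protein kinase C substrate, at 43.4 CPM in PBS and 120.5 CPM in PD-L1 and 10.9 and 22.2 CPM. Of the 10 genes named as higher in all members, which were Slfn4, Acod1, Ifi27l2a, S100a9, S100a8, Rsad2, Il1b, Rnf213, G0s2 and Plek, 7 stayed past 1.5-fold without the mixed members. Of the same 10, 10 were past it in members with both coreceptors, 1 (Rnf213) in members with neither, 4 in dividing cells, 8 in the other T cells and 8 in B cells. The myeloid marker list had 6 of 11 genes higher and 0 lower in all members (median 0.70), and 2 of 6 and 0 without the mixed members (median 0.16).

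Without the mixed members, other genes were named as higher in PD-L1. Purb, a single-stranded DNA-binding repressor, stood at 88.1 and 189 CPM (1.02), with 69.5 and 125 CPM in the other T cells and 67.6 and 119.6 CPM in B cells. Hnrnpa0, an RNA-binding protein of stress-response transcripts, stood at 293 and 561 CPM (0.91). The adhesion receptor Adgre5 (CD97) stood at 73.3 and 140.0 CPM, the sphingomyelin synthase Sgms1 at 58.9 and 113 CPM, Atf3 at 70.3 and 131 CPM, Ldlrad3 at 85.1 and 155 CPM and the chemokine Ccl4 at 90.1 and 159.5 CPM. Ddx24, a helicase, Ifi27, an interferon-induced gene, and Mbp, the myelin basic protein locus, completed the 10 at 71.3 and 127 CPM, 85.6 and 151 CPM and 69.3 and 121 CPM. Of these 10, 3 were past 1.5-fold the same way in dividing cells, 3 in the other T cells and 2 in B cells (Purb and Hnrnpa0). New among the lower genes were the granule protease Gzma at 335 and 193 CPM, the cytidine deaminase Apobec3 at 100.5 and 57.2 CPM and the stress gene Ndrg1 at 105 and 61.2 CPM.

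**Figure D5:**
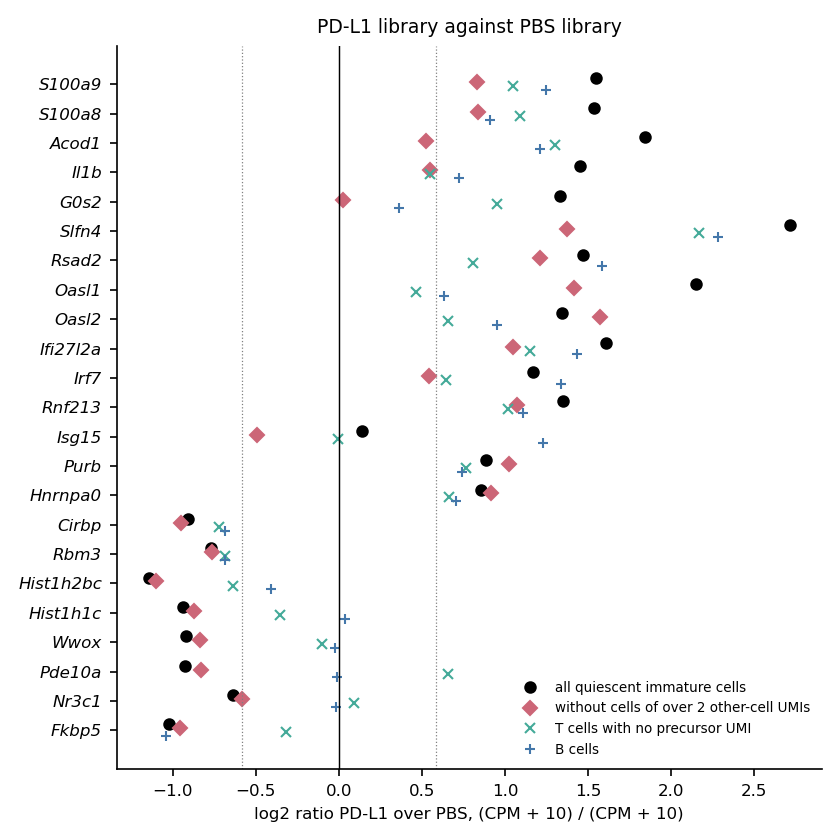
Log2 ratio of PD-L1 over PBS on the scale of CPM plus 10 for 23 genes in all members, members without the mixed cells, T cells with no precursor UMI and B cells. Dotted lines mark 1.5-fold. In all members Hist1h2bc (-1.14) and Fkbp5 (-1.02) lie below the lower line, and S100a9 (1.55) and Rsad2 (1.47) lie above the upper one.

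Markers of other cell types were summed in the members. Myeloid markers summed to 975 CPM in PBS and 2176 in PD-L1, and to 192 and 243 without the mixed members. B cell markers summed to 528 and 720 CPM (250.0 and 228 without), NK markers to 874 and 943 (678 and 472 without), and plasmacytoid dendritic cell markers to 631 and 728 (567 and 711 without, and 368 and 483 in T cells with no precursor UMI). The last list holds Ccr9, which the check of the label used. In T cells with no precursor UMI the NK sum was 9618 and 7117 CPM. The NK sum of all members thus stood below that of those T cells but above that of dividing immature cells (634 and 563 CPM). The myeloid sum of members was higher in PD-L1 than in PBS.

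Thymic stroma was looked for because the members carry genes of thymocytes and the tissue label is lung cancer. Of 12 stromal markers, 6 were at 0 in PBS members and 8 in PD-L1 members. Foxn1, the factor of thymic epithelium, Aire, Krt5, Krt14 and Tbata were at 0 in both. The 12 markers summed to 93.0 and 81.5 CPM in members and 53.9 and 58.0 CPM in T cells with no precursor UMI. Dividing immature cells had 63.9 and 49.0 CPM. Of 3 list genes measured against those T cells, 1 was higher in members in both libraries and 0 lower. Over all genes the shares were 16.9% and 7.45%. Ccl25, the ligand of CCR9, stood at 16.9 CPM in PBS and 17.7 CPM in PD-L1 in members. These are transcripts captured with the member cells and do not say where the cells had been, and no label says whether thymus was part of the dissected tissue.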

How the data were processed

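Chromium 3′ v3.1 libraries sequenced on a NovaSeq, per the labels' protocols, gave the values used here, counts of UMIs per gene and barcode that were deposited by the authors as whole numbers, not normalized. Cell Ranger is 7.1.0 per the file headers and 3.0.2 per the submitters' processing notes. No source used here names the genome build or annotation. Where symbols were repeated (38 symbols), the first row was used.

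Barcodes with at least 500 UMIs, at least 200 genes and at most 20% mitochondrial UMIs were taken as cells, and the rule for members was applied to their counts. Doublets were scored with Scrublet in scanpy 1.11.5 and not removed, since its automatic threshold marked 1, 0 and 0 cells. A score over 0.15 was an alternative. Counts were summed per class and library and scaled to 1000000 UMIs. Ratios are log2 of CPM plus 10 over CPM plus 10, which pulls low genes toward 0. Genes with a mean of at least 10 CPM were measured, and a ratio of 1.5 was the size for higher or lower, in both libraries where classes were compared. For the share of cells holding a UMI, each cell was thinned to 1000 UMIs.

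The genes named had at least 100 CPM in the higher sum and 50 UMIs, and were the 10 highest and 10 lowest ratios between libraries, or the 8 highest and 8 lowest between classes. Other genes come from 28 gene lists. The members and lists were chosen with earlier results of these data known. Leaving out mixed members, and comparing coreceptor ranges, were chosen after the data were seen. Numpy 2.4.6, scipy 1.17.1 and pandas 2.3.3 under Python 3.11.15 were used, and the ratio code was tested on simulated data.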

Additional observations from a re-analysis of the deposited data

Results flagged for a closer look

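Pde10a, which encodes a phosphodiesterase, was lower in PD-L1 than in PBS among the members (log2 ratio -0.92, from 105.6 and 50.9 CPM) and went the other way in T cells with no precursor UMI, from 3.55 and 11.3 CPM. The difference between the classes was not tested, and the level in the T cells was low.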

How the results depend on the processing

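With 1 library per group, the values carry counting error only, and rare transcripts in the members (2301974 and 1925916 UMIs) limit the ratios of low genes. Under the alternatives, 51 values of counts, shares and list results stayed within 1.5 times the value given or within its counting interval, and 26 moved.

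The share of members fell with the minimum count of Rag1, Dntt and Arpp21: to 4.54% of PBS cells and 3.93% of PD-L1 cells at 3 UMIs, and to 3.15% and 2.70% at 5 UMIs. Thinning to 1000 UMIs set the coreceptor shares at 15.1% both, 8.37% Cd4 alone and 42.7% neither in PBS, and at 16.6%, 7.39% and 35.6% in PD-L1, with 40.4% CD8 alone.

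The count of genes past 1.5-fold in PD-L1 over PBS depended on how low counts were treated. Higher genes numbered 593 with 1 added to CPM, 54 with 50 added, 84 at a mean of 50 CPM, 686 after thinning and 625 in members with both coreceptors alone. Lower genes numbered 292, 14, 25, 573 and 405 under the same settings, and 221 when mitochondrial, ribosomal and receptor genes were left out of the totals. At a mean of 50 CPM, 669 genes were higher and 295 lower than in T cells with no precursor UMI, and 794 higher and 535 lower than in dividing cells.

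For named genes and list medians, 517 alternative values moved by less than their counting error, 49 moved by more and 4 changed sign. Ctla2a (0.49) and Ifi27 (-0.073) did so in members with both coreceptors, and S100a9 (-1.11) and S100a8 (-0.86) without members of doublet score over 0.15. The interferon median ranged from 0.37 with 50 added to CPM to 1.04 with 1 added, and was above 0 under each alternative run.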

Other observations

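A few large differences between the libraries in genes of other cells came from single members. Pf4, a platelet chemokine, had 143 UMIs in PBS members and 4 in PD-L1 members, and 94.4% of the PBS UMIs were in 1 cell. Cldn5, a tight junction protein of endothelium, had 0 and 66 UMIs, of which 71.2% were in 1 of 3 cells. Siglech, a plasmacytoid dendritic cell receptor, and Klk1, a kallikrein, each had 13 UMIs in PBS members, all in 1 cell, and 0 in PD-L1 members.

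Gzma, a granule protease of cytotoxic cells, was carried by members with neither coreceptor at 409.6 and 382 CPM and by dividing immature cells at 419.8 and 383 CPM, against 2.64 and 57.1 CPM in B cells. Over all members its level was lower than in T cells with no precursor UMI in both libraries. After thinning, 16.2% and 14.9% of members with neither held a Gzma UMI, against 11.7% and 7.44% of those T cells. Slc7a11, the cystine transporter, stood at 145 and 168 CPM in members and 40.6 and 60.4 CPM in T cells with no precursor UMI.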
